A study of Mus musculus with 2 samples.

Results

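Fibroblast growth factors act through a three-part complex at the cell surface: the secreted ligand, a receptor tyrosine kinase, and a heparan sulphate chain that holds them together. The chains are long sulphated sugars carried by a small set of core proteins, chiefly the membrane-anchored glypicans and the membrane-spanning syndecans. Sulphate groups along the chain decide which ligands bind, so both the core proteins and the enzymes that write and edit the sulphate pattern belong to FGF signalling. Described here are 6 mouse genes of this surface machinery. They are Gpc1, Sdc1 and Sdc2 (proteoglycan core proteins), Fgf10 (a ligand), and Fgfr3 and Fgfrl1 (receptors).

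The study used CD1 mouse embryonic fibroblasts (CD1 MEFs). These are primary cells, often laid down as feeders under human embryonic stem cells. In both cultures division had been stopped with mitomycin C, which crosslinks DNA, and the cells were replated on gelatine at 55000 cells per square centimetre. They then spent 24 h in human embryonic stem cell medium based on serum replacement. The control culture received no FGF2 and the treated culture received 40 ng/ml of FGF2, and each was measured on 1 Illumina bead array. With 1 array per group no difference could be checked on replicates, so p-values are not given and each ratio describes these 2 arrays. Total RNA of a whole culture was measured, so fewer cells of a type and less RNA per cell cannot be told apart.

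The probes of the members were taken by gene name: a number of 5 or more digits after 1 or 2 zeros in a probe's ID was read as a mouse NCBI gene ID. This match is not stated in the files, and every gene name in the text rests on it. The 6 genes have 8 of the array's 24044 probes, of which 8884 were named in all, for 7409 genes. Of the 8 probes, 5 were detected on both arrays, 2 on 1 array and 1 on neither, where detected means a detection score of at least 0.99 on a scale from 0 to 1. All 6 genes had at least 1 probe detected on at least 1 array, and 5 had a probe detected on both.

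As a check of the labelled cell type, 6 of 7 fibroblast markers with a named probe were detected, among them Col1a1, Col1a2, Dcn and Prrx1. The leukocyte markers Ptprc, Cd68, Csf1r and Itgam were detected on neither array, nor was the endothelial marker Pecam1. Other markers of these lists were detected at low signals. Lyz2, on 1 of its probes, had deposited signals of 231.0 and 199.2 on the control and FGF2 arrays, and Hba-a1 was detected on the control array only. The endothelial markers Emcn (276.1 and 294.1) and Eng (301.4 and 276.9) were detected on both arrays. The fibroblast markers went both ways: of the 6 detected, 4 had log2 ratios below 0 and 2 above. Col1a1, the brightest of them on the control array, had normalized signals of 9119 and 2697. Dcn and S100a4 were higher with FGF2, with log2 ratios of 0.42 and 0.75. The summed normalized signal of the marker probes was 20829 on the control and 15646 on the FGF2 array for fibroblasts, and 1500 and 1428 for macrophage and blood markers, of which 2 of 8 genes were detected. It was 727 and 736 for endothelial markers (2 of 3 detected), 846 and 1037 for epithelial markers (2 of 4) and 2165 and 5830 for skeletal muscle and neural markers (4 of 5). In this last list Gap43 had deposited signals of 1245 and 3954, and Chrna1, on 1 of its probes, 259.4 and 1038. Nefm (167.6 and 351.7) was detected with FGF2 only, and Tubb3 had 244.2 and 203.1. Most of a dim probe's signal is background: the median signal of undetected probes was 140.5 on the control and 132.5 on the FGF2 array. What part these differences have in the members' ratios was not tested.

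Of the 6 members, only Gpc1 was at least 1.5-fold higher with FGF2 and none was at least 1.5-fold lower. Over all 8384 detected genes, counting each unnamed probe as a gene, 4.34% passed 1.5-fold upwards and 5.57% downwards. In the authors' background-subtracted values the members gave the same counts, against 11.2% higher and 11.3% lower over all genes. The median log2 ratio of the members was 0.04, beside 0.01 over all detected genes. A count of 1 in 6 is too small to be read against these shares.

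**Figure D1:**
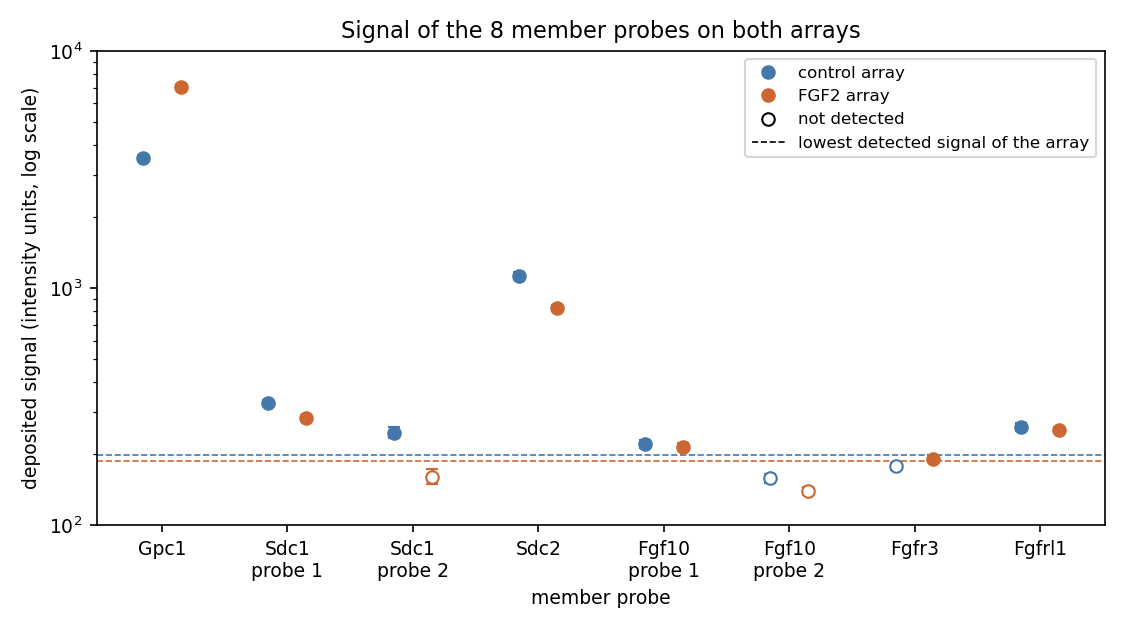
Deposited signal of the 8 member probes without FGF2 (blue) and with FGF2 (orange), on a log axis; bars are the deposited bead spread of each probe, open circles were not detected, and dashed lines mark the lowest detected signal of each array. The Gpc1 probe went from 3541 to 7022, whereas the probes of Fgf10, Fgfr3 and Fgfrl1 lay between 139.2 and 260.4, close to the lines.

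Gpc1 (NCBI gene 14733) codes for glypican-1, a proteoglycan held in the membrane by a lipid anchor and known as a carrier of heparan sulphate chains that bind FGF2. Its single probe had a deposited signal of 3541 without FGF2 and 7022 with it, with bead spreads of 94.1 and 218. After quantile normalization the signals were 3628 and 6902, a log2 ratio of 0.93 or 1.90-fold higher with FGF2. The signal with FGF2 was nearly double that without it, and both lay far above background, at 25.2 and 53.0 times the median of undetected probes.

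The bead spread of the Gpc1 probe gave an error of 0.059 for its log2 ratio, so that 1.96 times this error spans 0.81 to 1.04. A wider measure is the scatter between different probes of the same gene: over 299 pairs in 243 genes, all detected on both arrays, the log2 ratio of a probe had an SD of 0.18. The Gpc1 ratio was larger than either, but neither measure holds the difference between separate cultures. In the authors' background-subtracted values Gpc1 stood at 3402 and 7264, which is 2.14-fold. Gpc1 therefore lay below 2-fold in the normalized signals and above it in the authors' values.

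In the normalized signals large ratios were more frequent among bright genes. These signals keep their background and are raised to the lowest detected signal where below it, which narrows the ratios of dim genes. What part this has in the pattern was not tested. With the detected genes split into 5 equal bins by signal, the brightest bin held 1677 genes, of which 7.39% passed 1.5-fold upwards and 8.77% downwards. The middle 95% of its log2 ratios lay between -1.22 and 1.11. Gpc1 belongs to this bin and lay inside that range, with 58 of the 1677 genes, itself included, at or above its ratio. Among all 8384 detected genes 132 were at or above it.

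**Figure D2:**
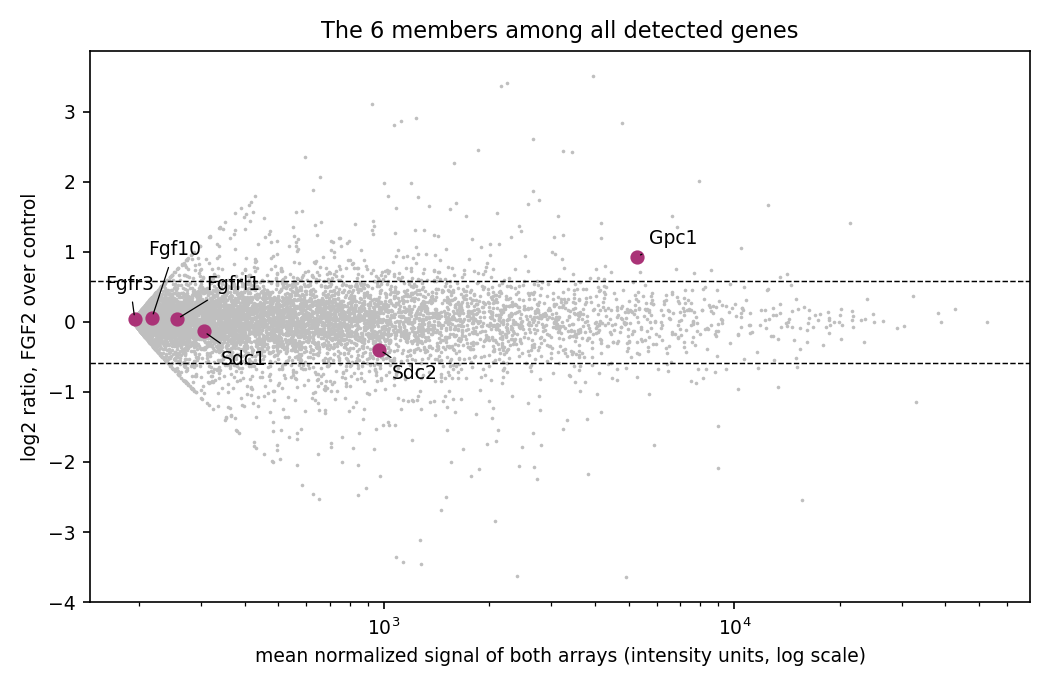
Log2 ratio of FGF2 over control against the mean normalized signal of both arrays (log axis) for the 8384 detected genes (grey) and the 6 members (purple); dashed lines mark 1.5-fold. Gpc1 is the member above the upper line at 0.93, Sdc2 lies at -0.40, and the slanted left edges of the grey cloud are set by the lowest detected signals.

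Both syndecans had ratios below 0. Sdc2 (NCBI gene 15529) codes for syndecan-2, the family member typical of mesenchymal cells. Its 1 probe had deposited signals of 1129 and 824 with bead spreads of 36.0 and 24.2, and normalized signals of 1104 and 837. Sdc2 was thus 1.32-fold lower with FGF2, a log2 ratio of -0.40, short of the 1.5-fold mark. Its distance from 0 was larger than its bead error of 0.063 and than the scatter between probes of a gene. Ratios of this size were not rare, however. Of the 1677 genes in the brightness bin of Sdc2, 232 were at or below its ratio, itself included. Among all 8384 detected genes 843 were at or below it.

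Sdc1 (NCBI gene 20969) codes for syndecan-1, which is best known from epithelia and plasma cells, and has 2 probes. The brighter probe had deposited signals of 327.9 and 282.4, and its normalized log2 ratio was -0.14, with a bead error of 0.062. That ratio was smaller than the scatter between probes of a gene. The dimmer probe had signals of 246.0 on the control and 160.6 on the FGF2 array, where its detection score of 0.90 missed the limit, so it gives only a bound: at least 1.23-fold lower.

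Both Sdc1 probes therefore pointed the same way, with unequal sizes. In the authors' values the brighter probe was 1.19-fold lower (188.7 and 159.1) and the dimmer one at least 1.83-fold lower, past the 1.5-fold mark, since it has 106.8 on the control array and no value on the FGF2 array. Of other epithelial markers, Krt8 and Krt19 were detected on neither array, while Krt18 and Cldn4 were detected on both. Krt18 had normalized signals of 205 and 385, 1.88-fold higher with FGF2, and Cldn4 had 203 and 223. The part of other cells in the Sdc1 values was not tested.

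The mouse Sdc1 gene is known for an FGF-inducible enhancer that lies far upstream of its start. The reference table used here holds a start-site window, 250 bases before to 50 after the start, for 4 of the 6 members: Sdc1, Fgf10, Fgfr3 (with 2 windows) and Fgfrl1. Sdc1 had both probes lower, the brighter by less than the scatter between probes of a gene and the dimmer as a bound. Fgfrl1 had no difference larger than its bead error, so the 2 genes are not a clear contrast. The windows of the proteoglycan Sdc1 and the receptor Fgfrl1 are shown. Both are from RefSeq on GRCm38.p6, plus strand, Sdc1 at chr12:8771146-8771445 and Fgfrl1 at chr5:108693979-108694278, and capitals mark the motif matches described after them.
Sdc1: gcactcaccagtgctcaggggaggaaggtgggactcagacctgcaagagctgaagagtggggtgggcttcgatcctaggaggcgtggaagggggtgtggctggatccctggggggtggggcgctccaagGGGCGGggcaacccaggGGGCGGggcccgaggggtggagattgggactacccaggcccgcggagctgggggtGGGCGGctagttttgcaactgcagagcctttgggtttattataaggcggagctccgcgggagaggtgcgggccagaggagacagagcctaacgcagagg
Fgfrl1: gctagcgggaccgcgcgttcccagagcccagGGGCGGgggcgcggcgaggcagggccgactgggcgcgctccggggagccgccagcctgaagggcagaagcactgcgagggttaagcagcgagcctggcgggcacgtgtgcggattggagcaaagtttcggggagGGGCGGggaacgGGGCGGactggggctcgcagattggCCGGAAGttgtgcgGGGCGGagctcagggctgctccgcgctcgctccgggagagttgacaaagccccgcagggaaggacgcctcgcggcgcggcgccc

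On both strands the windows were searched for the GC box (GGGCGG), the AP-1 motif (TGANTCA), the cyclic AMP response element (TGACGTCA), the EGR motif (GCGTGGGCG) and an ETS motif (CCGGAAG). The Sdc1 window holds 3 GC boxes and the Fgfrl1 window 4 GC boxes and 1 ETS motif, and no match overlaps another. A GC box occurs in all 5 windows of the members and in 35.7% of 32851 windows of the whole table. The ETS motif is in 8.86% of all windows, and the AP-1 motif, found in 7.81% of them, is in none of the members' windows. Neither are the response element (1.79% of all windows) and the EGR motif (0.61%). The members' windows are rich in G and C, with 66.3% for Sdc1 and 73.7% for Fgfrl1 against a median of 52.7%. These matches describe the letters of the windows only.

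The ligand and the receptors were measured close to the detection limit. Fgf10 (NCBI gene 14165) codes for a ligand that mesenchyme secretes and that acts chiefly on epithelial FGF receptors. Its brighter probe had deposited signals of 220.5 and 214.4 with bead spreads of 7.9 on both arrays and detection scores of 0.999 and 0.998. The normalized log2 ratio was 0.06, within its bead error of 0.074. The other Fgf10 probe, with signals of 157.6 and 139.2, was detected on neither array. No difference in Fgf10 was measurable at these signals.

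Fgfr3 (NCBI gene 14184), a receptor tyrosine kinase best known for restraining bone growth, crossed the detection limit between the arrays. Its 1 probe had deposited signals of 177.2 and 191.1 and detection scores of 0.94 on the control and 0.99 on the FGF2 array. Detected with FGF2 only, it gives a bound of at least 1.03-fold higher. The sign of this bound follows from that detection together with the lowest detected signals of the normalized arrays. The normalized signals themselves, 172 and 197, lay on either side of the lowest detected signals of 191.7 and 193.1.

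Fgfrl1 (NCBI gene 116701) codes for a receptor that binds FGF ligands and heparin but has no tyrosine kinase domain. Its 1 probe was detected on both arrays with deposited signals of 260.4 and 252.9 and bead spreads of 10.5 and 6.6. The log2 ratio was 0.04, within the bead error of 0.069, and in the authors' values the signals were 121.2 and 128.0. The ratio of Fgfrl1 thus showed no difference larger than its bead error.

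The signs of Fgf10 and Fgfrl1 were not stable: without scaling of the arrays both log2 ratios were -0.04. For Fgfr3 the unscaled signals gave a log2 ratio of 0.11, but its bound became -0.05 there, because the lowest detected control signal of 197.9 stood in for the undetected control value. The signs of Gpc1, Sdc1 and Sdc2 were the same under all 8 alternative settings that gave a ratio. For Gpc1 and Sdc2, with 1 bright probe each, some settings could not change the ratio. These were the detection limit of 0.95, the mean over detected probes and the brightness filter. Gpc1 ranged from 0.92 to 1.09, Sdc2 from -0.45 to -0.37 and Sdc1 from -0.25 to -0.12.

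**Figure D3:**
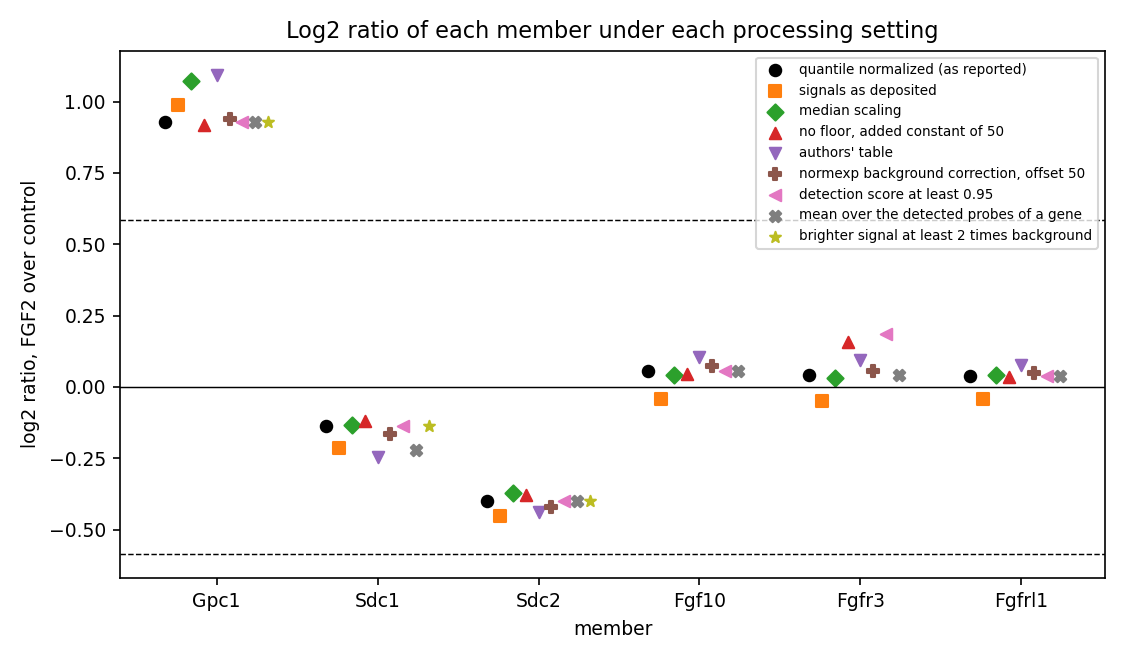
Log2 ratio of FGF2 over control of the 6 members under each processing setting (symbols); dashed lines mark 1.5-fold and the solid line no difference. Gpc1 stays above the upper line in each setting, both syndecans stay between 0 and the lower line, and the orange squares (unscaled) lie below 0 for Fgf10, Fgfrl1 and Fgfr3, the last through the lowest detected signal put in place of its control value.

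Likeness to other genes was taken as the distance between pairs of normalized log2 signals on the 2 arrays, so it covers level and ratio together over 2 values only. Signals below the lowest detected signal were first raised to it. For Fgfr3 the control value was therefore 191.7 in place of 172. The named genes nearest to Gpc1 were Rpl7, Pgd and Pgk1, at distances of 0.34 to 0.36 and with lower log2 ratios of 0.52, 0.71 and 0.45. Rpl7 has many near-identical copies in the genome and is uncertain for that reason. The other members had much closer neighbours, all within 0.05. They were Brat1, Pik3r3 and Pgpep1 for Sdc2, and Fam171a2, Kctd9 and Trex1 for Sdc1. For Fgf10 they were Kif1a, Trim56 and Add1, for Fgfr3 Socs4, Mbnl3 and Slc16a6, and for Fgfrl1 0610010K14Rik, Ikbkg and Hdhd5.

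Gpc1 was then set beside the other carriers of heparan sulphate. For the counts past 1.5-fold that follow, the shares over all detected genes were 4.34% higher and 5.57% lower. A list of 16 core and carrier proteins was used, of which 8 had a named probe and 6 gave a detected signal. Gpc1 was at least 1.5-fold higher and none was at least 1.5-fold lower, and the list median was -0.38. All 5 others had log2 ratios below 0, from -0.50 to -0.14, the last being Sdc1, within the scatter between probes of a gene. Of all detected genes 47.6% were below 0, and 5 genes are too few to be read against this share. Hspg2 (perlecan, a large proteoglycan of basement membranes) had normalized signals of 4583 and 3248, a log2 ratio of -0.50. Agrn (agrin, a basement membrane proteoglycan that also organizes the neuromuscular junction) had 4173 and 3017, a log2 ratio of -0.47.

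Nrp1 (neuropilin-1, a co-receptor that can carry a glycosaminoglycan chain) had log2 ratios of -0.35 and -0.22 on its 2 detected probes. Gpc1 and the other 5 thus lay on opposite sides of 0. In the authors' values the 5 ran from -0.44 to -0.25. The probes of Gpc5, another glypican, and of Cd44, a surface glycoprotein with heparan sulphate isoforms, were detected on neither array. Cd44 had signals of 131.2 and 165.8, so its absence from the detected genes describes this probe. Sdc3, Sdc4 and the other glypicans had no named probe and were not analysed here.

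Enzymes that build, edit and degrade the chains came next. Their list holds 45 genes, 19 of them with a named probe and 10 detected, with a median log2 ratio of -0.27. Over all detected genes 4.34% passed 1.5-fold upwards and 5.57% downwards, or 11.2% and 11.3% in the authors' values. A list of 10 detected genes is too small to be read against these shares. None of the 10 was at least 1.5-fold higher, and Sulf1 and Sulf2 were at least 1.5-fold lower. These are the extracellular sulphatases that remove sulphate groups from finished chains and are known to alter how well FGF2 can signal through them.

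Sulf1 had normalized signals of 1866 without and 842 with FGF2, which is 2.22-fold lower, with a bead error of 0.078 for its log2 ratio of -1.15. Sulf2 had 4761 and 3094, 1.54-fold lower. The difference of Sulf1 was past 2-fold also in the authors' values (2.38-fold), while Sulf2 was 1.43-fold lower there and no longer passed the mark. There the second gene at least 1.5-fold lower was Hs6st2, a heparan sulphate 6-O-sulphotransferase. It was detected on the control array only and had a bound of at least 1.76-fold lower in the authors' values, against a normalized log2 bound of -0.28.

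The other enzymes lay within 1.5-fold. Pxylp1, the phosphatase that frees the growing linker of its xylose phosphate, had a log2 ratio of -0.54, and Fam20b, the kinase that adds this phosphate, one of -0.26. Naglu, Hgsnat and Sgsh, lysosomal enzymes of chain degradation, had log2 ratios of -0.37, -0.15 and -0.04. Only 2 enzymes lay above 0: Ndst1, which starts sulphation of the chain, at 0.24 and Extl3, which starts its synthesis, at 0.07. Over carriers and enzymes together 13 of 16 detected genes had log2 ratios below 0, with a median of -0.32, and the authors' values also put 13 of 16 below 0. In the normalized signals 47.6% of all detected genes were below 0, and 16 genes are too few to be read against this share. The 13 include Sgsh, whose ratio was within its bead error of 0.077, and Hs6st2, which has only a bound.

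**Figure D4:**
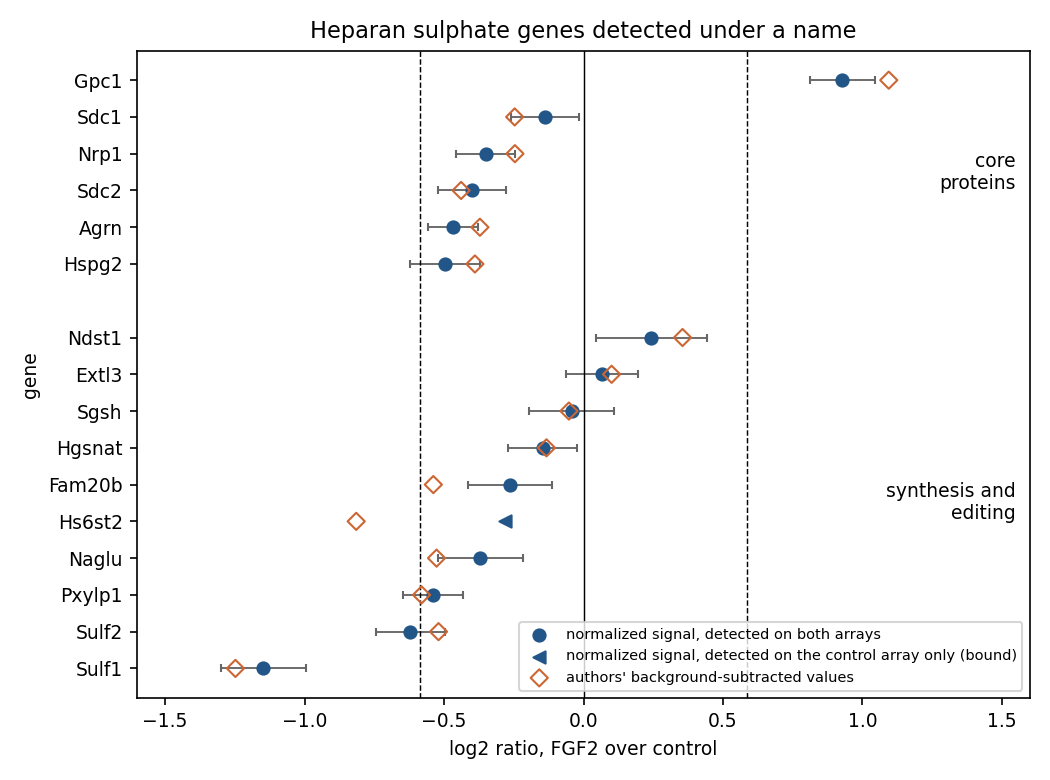
Log2 ratio of FGF2 over control of the 16 heparan sulphate genes detected under a name, from normalized signals (blue; bars are 1.96 times the bead error) and from the authors' background-subtracted values (open diamonds); dashed lines mark 1.5-fold. Gpc1 is at 0.93 and Sulf1 at -1.15, and the blue triangle of Hs6st2 is a bound.

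Further ligands and receptors gave few values. Beside their counts past 1.5-fold stand the shares over all detected genes, 4.34% higher and 5.57% lower. Of 22 FGF ligand genes, 7 had a named probe and 2 were detected, with a median log2 ratio of -0.26 and none past 1.5-fold. Beside Fgf10 this was Fgf13, an intracellular family member that is not secreted, with deposited signals of 295.6 and 175.7. It was detected on the control array only and had a log2 bound of -0.57, or at least 2.68-fold lower in the authors' values. The probes of Fgf4, Fgf7, Fgf9, Fgf18 and Fgf22 were detected on neither array, and Fgf2 itself was not analysed here.

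Of 13 receptors and associated proteins, 9 had a named probe and 5 were detected, with a median of 0.04. Flrt3, a membrane protein that can bind FGF receptors, was 1.51-fold lower (normalized signals of 629 and 416), just past the mark. Its log2 ratio of -0.60 had a bead error of 0.078, and it was 1.74-fold lower in the authors' values. The other Flrt3 probe was detected on neither array. The related Flrt2 had a log2 ratio of -0.39. Fibp, an intracellular FGF-binding protein, stood at 0.13. The probe of Fgfr1, the main FGF receptor of mesenchymal cells, had detection scores of 0.91 and 0.97 and was below the limit on both arrays, as was that of Fgfr2 with 0.88 and 0.66. Neither Fgfr1 nor Fgfr2 therefore has a measured ratio.

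Genes downstream of the receptors completed the comparison. Here too the shares over all detected genes past 1.5-fold were 4.34% higher and 5.57% lower. Of 28 genes of the RAS and ERK relay, 15 had a named probe and 10 were detected, with a median log2 ratio of 0.07 and none at least 1.5-fold lower. Rasa1, a GTPase-activating protein that switches RAS off, was the only one at least 1.5-fold higher, with normalized signals of 1346 and 2901 (2.15-fold). The lowest of the list was Stat3, a transcription factor activated by many receptors, at a log2 ratio of -0.25, with -0.51 on its other detected probe. Mapk3 (-0.02) and Ptpn11 (0.05), named after their values were seen, lay nearer to 0. Of 18 feedback inhibitors and ETS target genes, 5 had a named probe, all 5 were detected, and 3 were at least 1.5-fold higher: Errfi1, Ccnd1 and Etv1, with log2 ratios of 2.42, 1.66 and 1.57. None was at least 1.5-fold lower, and the median was 1.57. The ratios of these 3 were larger than that of any of the 6 surface genes, although the other detected probe of Etv1 had a log2 ratio of 0.19. Spred1, an inhibitor of the relay detected with FGF2 only, had a bound of 0.58, just short of the mark, and was at least 2.62-fold higher in the authors' values. The related Spred2, also detected with FGF2 only, had a log2 bound of 0.01, or -0.01 in the authors' values. The other Spred2 probe was detected on neither array.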

How the data were processed

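Total RNA of 2 cultures was measured, 1 array each. Amplification was linear, from 300 ng with 6 h of transcription, and the dye was Cy3, per the labels' protocols. BeadStudio 1.0 is named in the submitters' processing notes. The deposited array files give, per the file headers, a mean signal intensity, a bead spread and a detection score for each probe. The number of beads is not given, so the bead column could be an SD or an SE and was used as it stands. The authors' deposited table holds intensities with 139.2 subtracted on the control array, and with 131.5 subtracted and a factor of 1.054 on the FGF2 array, found by setting it against the array files. It has values only at scores of at least 0.99, and its medians were 288 and 293; how the factor was derived is not stated in these sources.

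Of 9523 probe IDs with a number read as a gene ID, 93.3% matched the RefSeq table (GRCm38.p6). Signals were quantile normalized, set to the lowest detected signal of the array where below it (191.7 and 193.1), and expressed as log2 ratios. The brightest detected probe stands for a gene; one detected on 1 array has a bound. Precision is limited by the number of arrays, and the bead error combines both arrays' relative bead spreads. Genes named are the members, the detected ligands, receptors and carriers, up to 4 genes per list past 1.5-fold, and the 3 nearest genes of each member; others were picked after their values were seen. The members and lists were chosen with earlier results of these data known. The procedure was tested on simulated data. Alternatives covered scaling, background (normexp with limma 3.58.1 in R 4.3.3), low values, detection, probe choice, brightness and fold. Python 3.11.15, numpy 2.4.6 and pandas 2.3.3 were used.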

Additional observations from a re-analysis of the deposited data

How the results depend on the processing

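Of the members' results, the log2 ratio of Gpc1 moved by more than 1.96 times its bead error, from 0.93 to 1.07 with median scaling and to 1.09 in the authors' table, and that of Fgfr3 from 0.04 to 0.18 with detection at a score of 0.95. Without scaling, the ratios of Fgf10 and Fgfrl1 and the bound of Fgfr3 turned sign, by less than that error; the Fgfr3 bound turned through the lowest detected control signal put in place of its control value. At a fold threshold of 2 the count of higher members fell from 1 to 0, and at the lowest threshold tried 1 member, Sdc2, counted as lower in place of 0. Among the 3 members left by the brightness filter, Gpc1, Sdc1 and Sdc2, the median was -0.14 in place of 0.04. For the lists, 1 FGF ligand (Fgf13) passed 1.5-fold lower in place of 0 with unscaled signals and in the authors' table, and 2 other receptor tyrosine kinases did in place of 1 in the authors' table. Feedback inhibitors and ETS targets passing 1.5-fold higher went from 3 to 4 in the authors' table. With that error as the limit for ratios and a change of 1.5 times as the limit for counts, 92 of 101 recomputed values stayed within it, this last one included. Some of the 92 could not have moved, such as the ratios of Gpc1 and Sdc2 under the detection, probe choice and brightness settings. Other causes were not tested. Background in the signals limits what can be seen for Fgf10, Fgfr3 and Fgfrl1, whose signals were under 2 times that of undetected probes. No paired analysis was possible because each group has 1 array.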

Other observations

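Other receptor tyrosine kinases than those for FGF went both ways. Their list holds 28 genes, 10 of them with a named probe and 5 detected, with a median log2 ratio of -0.31. Mertk, a receptor whose ligands bridge it to dying cells, had normalized signals of 330 without and 633 with FGF2, 1.92-fold higher. Ephb2, a receptor for membrane-bound ephrins, had 337 and 207, a log2 ratio of -0.71. Its second probe was detected on neither array. Igf1r, the receptor for insulin-like growth factors, stood at -0.37 and was 1.58-fold lower in the authors' values, where Ephb2 was 2.84-fold lower and Mertk 2.60-fold higher. Ephb4 and Erbb2 had log2 ratios of -0.31 and 0.11. Over all detected genes 4.34% passed 1.5-fold upwards and 5.57% downwards, or 11.2% and 11.3% in the authors' values.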
